A study of Arabidopsis thaliana and Arabidopsis thaliana x Arabidopsis arenosa and Arabidopsis arenosa with 18 samples.

Results

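Whole seeds of a C24 mother and an A. arenosa father (C24 hybrid seeds) were compared with seeds of a C24 mother and a C24 father (C24 control seeds), to find transcripts that differed in the cross that the study calls compatible. C24 is an accession of Arabidopsis thaliana, to which A. arenosa is closely related. In both groups the mother was C24A9, a diploid C24 line hemizygous for a male-sterility construct, and seeds were taken 3 days after pollination by hand. The father of the hybrid seeds was a diploid A. arenosa of the variety Strecno, and per the labels' protocols a single plant served all crosses. The comparison took 2 hybrid and 2 control libraries, which are 4 of the 14 libraries in the deposited gene table. All 33602 loci were taken, none for its values, and 20552 loci passed a filter on low counts. Seeds of the same age from a diploid Col-0 mother hemizygous for the same kind of construct (ColA9), crossed to A. arenosa (Col hybrid, described as incompatible) or to Col-0 (Col control), shared the fit and are given beside the exon length result and in the last comparison. Seeds of A. arenosa crossed to A. arenosa (A. arenosa control) are given as read counts or shares of reads, and entered a model only in an alternative over every library. No label states whether replicates are different plants, crosses or pools. The p-values therefore reflect the spread of these libraries, part of which may be technical.

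An Arabidopsis seed holds an embryo and an endosperm, the tissue that feeds the embryo, both products of fertilisation, inside a seed coat that carries only the mother's genotype. The endosperm first divides its nuclei without walls and later forms cells. Type I MADS-box transcription factors such as PHE1 and AGL62 act in the dividing endosperm, and the FIS Polycomb complex of MEA, FIS2, FIE and MSI1 restrains several of them. Many endosperm genes are imprinted, that is, expressed mainly from the copy of a single parent. In crosses between species or ploidies these genes are often misregulated, and seed growth changes with them.

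The gene table gave 12563500 and 11535647 gene reads in C24 hybrid 1 and 2, against 15363061 and 15915323 in C24 control 1 and 2. At this depth 3 reads stood for 0.245 and 0.272 CPM (reads scaled to a common library size with TMM factors) in the hybrid libraries, against 0.198 and 0.197 CPM in the control libraries. At least 1 read was counted at 26084 and 22555 loci in the hybrid libraries, against 28243 and 23105 in the control libraries. Each control column is the sum of 2 records, and the hybrid columns are not sums. The 10 most abundant loci took 8.76 and 10.8% of gene reads in the hybrid libraries, against 13.4 and 13.3% in the control libraries. Seed coat transcripts were abundant in all 4 libraries, with TT4, the chalcone synthase of flavonoid synthesis, at 10546 and 12750.3 CPM in the hybrid libraries, against 10726 and 11459 CPM in the control libraries. Each of 12 genes of the fruit valve and its dehiscence zone had reads in at least 1 library. Their summed level was 101 and 107 CPM in the hybrid libraries, against 93.3 and 108 CPM in the control libraries. Most of that sum came from ALC and RPL, and members at lower levels moved both ways. The sum therefore does not show whether fruit wall content was equal. YAB1 (AFO) had 2.28 and 1.63 CPM in the hybrid libraries, against 0.264 and 0.131 CPM in the control libraries. YAB2 had 2.61 and 3.80 CPM, against 4.75 and 6.96 CPM. Since whole seeds were sequenced, a lower level may reflect fewer cells of a type or less RNA per cell, and these cannot be told apart.

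Transcripts of many genes differed between C24 hybrid and C24 control seeds. Of 20552 loci, 6536 (31.8%) changed at an adjusted p under 0.05 in edgeR's quasi-likelihood test, with 3443 (16.8%) higher and 3093 (15.0%) lower in hybrid seeds. Past a log2 fold change of 1, 1619 were higher and 1386 lower. Past 3, 255 were higher and 102 lower, so that the larger changes were more often increases. The median log2 fold change of all tested loci was 0.00. The hybrid and control libraries did not overlap at 14163 loci (68.9%). The count fell to 3053 when C24 control 2 was left out, 3923 when it was C24 control 1 and 3975 when it was C24 hybrid 1, and a joint model of every library in the table (the 7-group fit) gave 3931. The share of increases among the calls stayed between 47.7 and 54.8% in every alternative run.

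**Figure D1:**
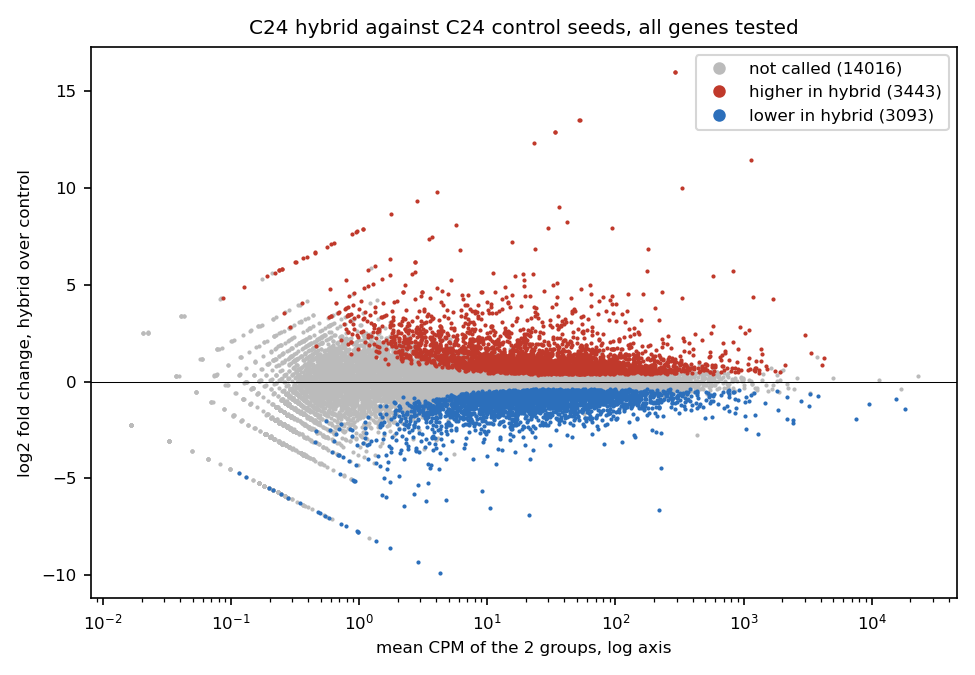
Log2 fold change of C24 hybrid over C24 control seeds (vertical axis) against the mean CPM of both groups (horizontal, log axis) for the 20552 loci tested. Red points are the 3443 loci called higher in hybrid seeds, blue points the 3093 called lower and grey points the rest, and the lines of points at the left are loci with few reads.

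Several of the largest increases among well-expressed unique genes were in genes that had few or no reads in control seeds. The largest was AT1G36240, a ribosomal protein of the L7Ae family, at 53.2 and 38.7 CPM in C24 hybrid 1 and 2, against no read in C24 control 1 and 2. With 3 reads per library as the floor it was at least 233-fold higher in hybrid seeds. The gene sks8, which encodes a protein of the SKU5-similar family resembling multicopper oxidases, had 767 and 545 CPM in the hybrid libraries, against 0.857 and 0.394 CPM in the control libraries. Its log2 fold change was 10.02 ± 0.44 (adjusted p = 2.46e-05). Hybrid and control libraries that did not overlap were a condition for choosing the genes of this group. A cysteine proteinase gene, AT4G23520, had 225 and 152 CPM in the hybrid libraries, against 0.989 and 0.525 CPM in the control libraries (log2 fold change 7.95 ± 0.53). The glycine-rich protein gene AT3G02670 was already expressed in control seeds, with 1817 and 1419 CPM in the hybrid libraries, against 33.6 and 28.2 CPM in the control libraries (5.71 ± 0.23, adjusted p = 2.37e-05). The other members of this group were AT5G25415, a protein of unknown function (log2 fold change 9.02), the lipase family gene AT2G30220 (7.22), the major facilitator family transporter AT2G39210 (5.57) and the cupin AT2G28680 (4.98).

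Seeds of the paternal species gave these 8 genes very different counts. In A. arenosa control 1 and 2, with 1777781 and 2089616 gene reads, AT1G36240 had 496 and 506 reads. The gene sks8 had 2 and 1 reads there, AT4G23520 had 5 and 4 and AT2G30220 had 3 and 0. Intermediate numbers were counted for AT3G02670 (55 and 63 reads), AT2G39210 (36 and 73), AT2G28680 (31 and 17) and AT5G25415 (26 and 16). Thus AT1G36240 was well covered in both the hybrid and the paternal species, whereas sks8 was abundant in the hybrid and near absent from both parental controls. Reads of A. arenosa were counted on the A. thaliana genome, and how many were lost through sequence differences was not tested.

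The largest decreases were in genes of varied kinds. AT5G07260, a gene with a START lipid-binding domain, had 0.489 and 0.181 CPM in the hybrid libraries, against 54.5 and 29.5 CPM in the control libraries (log2 fold change -6.90 ± 0.49, adjusted p = 0.000216). TPPI, a trehalose phosphate phosphatase of sugar signalling, had 4.40 and 4.25 CPM in the hybrid libraries, against 164 and 709.6 CPM in the control libraries (-6.65 ± 0.79, adjusted p = 0.000767). The 2 control libraries were far apart for TPPI, and both lay well above the hybrid libraries. No overlap was a condition for choosing it. In A. arenosa control 1 and 2, TPPI had 2151 and 3488 reads. A pair of genes of the gibberellin-regulated GASA family fell: AT5G59845, at 19.6 and 20.4 CPM in the hybrid libraries, against 446 and 428 CPM in the control libraries (-4.45 ± 0.27), and GASA6, with a log2 fold change of -3.62. The remaining decreases were GSTF14, a glutathione S-transferase (-3.99), AT1G17090, which has no known function (-3.51), AT4G01897, annotated as a dihydroorotate dehydrogenase (-3.26), and RGP4, a reversibly glycosylated polypeptide (-3.24). None of the 16 genes lost its call or changed direction in a fit that left out 1 library.

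**Figure D2:**
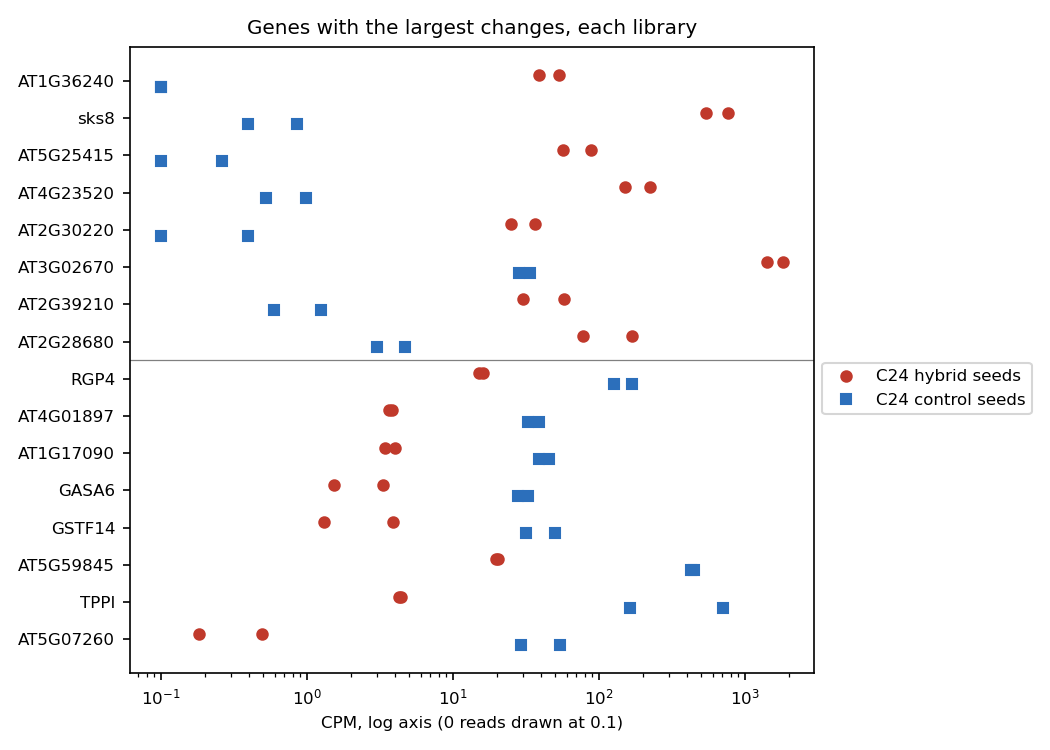
CPM on a log axis of the 8 genes with the largest increases (above the line) and the 8 with the largest decreases (below it) in each library. Red circles are C24 hybrid libraries and blue squares C24 control libraries, with libraries at 0 reads drawn at 0.1. No hybrid library overlaps a control library for any gene, which was a condition for choosing these genes.

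The 8 unique genes that gained the most CPM in hybrid seeds included wall proteins. The extensin-like gene AT3G49270 averaged 4929 ± 1320.4 CPM in hybrid seeds and 1768 ± 308 CPM in control seeds (SD, n = 2 each; log2 fold change 1.48). BXL3, a beta-xylosidase that trims cell wall xylan and arabinan, had 4104 and 2397 CPM in the hybrid libraries, against 194 and 143 CPM in the control libraries (4.27 ± 0.30, adjusted p = 0.000116). PRP4, a proline-rich wall protein, had 1972 and 1849 CPM in the hybrid libraries, against 309.8 and 298 CPM in the control libraries (2.65 ± 0.14). Replicates lay close together for PRP4, and hybrid 1 was well above hybrid 2 for BXL3. FLA10, an arabinogalactan protein with fasciclin domains, rose (1.70), as did the disulfide isomerase PDIL1-2 (1.43), AT5G51105 of the ECA1 gametogenesis family (2.52) and AT3G29570, which has no known function (2.82). The remaining member was AT3G02670, described above.

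The 8 unique genes that lost the most CPM included seed coat genes. AT4G15750, of the pectin methylesterase inhibitor family and the most abundant of them in control seeds, had 8645 and 11179 CPM in the hybrid libraries, against 24652 and 28039.8 CPM in the control libraries (-1.41 ± 0.20, adjusted p = 0.00166). DELTA-VPE, a vacuolar protease that acts in the death of inner seed coat cells, had 3635 and 2658 CPM in the hybrid libraries, against 10725 and 13237 CPM in the control libraries (-1.93 ± 0.27). All hybrid libraries lay below all control libraries for both genes, and the groups did not overlap at 68.9% of all tested loci. A pair of thiol reductases related to GILT fell, GILT with a log2 fold change of -1.15 and AT4G12890 with -2.72. So did KAT5, a thiolase of fatty acid breakdown (-1.97), the carboxypeptidase-like scpl20 (-1.24), and BAN and DFR of tannin synthesis, given below.

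Gene lists are given next by the number of members called, to be read against the 16.8% and 15.0% of all tested loci that rose and fell. Type I MADS-box genes showed increases and no decrease. Of 14 genes in the list 13 passed the filter, and 6 rose and none fell, with a median log2 fold change of 1.95 against 0.00 for all loci. PHE1, a paternally expressed endosperm factor, had 158 and 44.1 CPM in the hybrid libraries, against 10.0 and 9.38 CPM in the control libraries (3.38 ± 0.59, adjusted p = 0.00376). AGL62, which keeps the endosperm from forming cells too early, had 88.8 and 43.3 CPM in the hybrid libraries, against 7.91 and 9.78 CPM in the control libraries (2.90 ± 0.38, adjusted p = 0.00111). AGL36, expressed from the maternal copy in A. thaliana endosperm, had 98.5 and 34.7 CPM in the hybrid libraries, against 3.49 and 2.89 CPM in the control libraries (4.38 ± 0.53). The level in hybrid 1 was more than that in hybrid 2 in each of these genes, and both stood clear of the control libraries. Groups without overlap were seen at 68.9% of all tested loci. AGL90 (3.37), AGL38 (2.84, also called PHE2) and AGL96 (1.95) also rose. AGL80, which acts in the central cell, had 14.5 and 8.78 CPM in the hybrid libraries, against 6.59 and 8.27 CPM in the control libraries, and did not pass the test (adjusted p = 0.0898). PHE1, AGL36, AGL90 and AGL38 share 11.1, 32.9, 33.3 and 13.0% of their exon words of 31 bases with other loci, so their counts are uncertain, and 2 genes were called among unique loci. Without C24 control 2, 4 rose, since AGL38 and AGL90 had adjusted p-values of 0.0559 and 0.0570.

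Among 18 imprinted and Polycomb genes, 6 rose and 1 fell (median 0.42). FIS2, the Polycomb subunit expressed from the maternal copy in endosperm, fell to 2.2 and 1.90 CPM in the hybrid libraries, against 28.7 and 18.8 CPM in the control libraries (-3.53 ± 0.42, adjusted p = 0.000763). MEA, its partner with the histone methyltransferase activity, rose to 16.3 ± 5.47 CPM in hybrid seeds, against 5.62 ± 0.157 CPM in control seeds (SD, n = 2 each). Its log2 fold change was 1.53 ± 0.25 (adjusted p = 0.00303). Both genes passed the test, so transcripts of 2 subunits of 1 complex moved in opposite directions. The groups did not overlap for either gene, which held at 68.9% of all tested loci. The subunits FIE and MSI1 had log2 fold changes of -0.39 and 0.02 and did not pass the test (adjusted p = 0.0606 and 0.933). Among genes known in A. thaliana as paternally expressed, YUC10, which makes auxin, had 18.6 and 7.60 CPM in the hybrid libraries, against 0.857 and 0.787 CPM in the control libraries (3.98 ± 0.51, adjusted p = 0.00107). VIM5, a relative of the methylation cofactor VIM1, had 122 and 74.9 CPM in the hybrid libraries, against 10.0 and 9.32 CPM in the control libraries (3.35 ± 0.29, adjusted p = 0.000266). SUVH7, a paternally expressed gene of the histone methyltransferase family, had a log2 fold change of 2.50. HDG3, a paternally expressed homeodomain gene, had 46.2 and 29.6 CPM in the hybrid libraries, against 91.7 and 42.6 CPM in the control libraries (-0.82 ± 0.35), and did not pass the test (adjusted p = 0.112). HDG9 of the homeodomain family (2.47) and CLF, a Polycomb methyltransferase (0.80), rose too. CLF was not called in any fit with 1 library left out (adjusted p 0.0623 to 0.166), and the count of genes that rose was 5 to 7 in those fits. Without C24 control 2, 2 genes fell.

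Regulators of endosperm growth and breakdown moved both ways. Of 7 tested genes of 9 in the list, 2 rose and 2 fell (median 0.12). WRKY10, known as MINI3, promotes endosperm growth and had 28.9 and 20.2 CPM in the hybrid libraries, against 4.15 and 5.05 CPM in the control libraries (2.42 ± 0.22, adjusted p = 0.000307). IKU1, a VQ protein of the same growth pathway, had 66.0 and 53.1 CPM in the hybrid libraries, against 18.9 and 17.7 CPM in the control libraries (1.71 ± 0.15, adjusted p = 0.000267). IKU2, the receptor kinase of that pathway, had 1.22 and 0.634 CPM in the hybrid libraries, against 0.923 and 0.787 CPM in the control libraries (adjusted p = 0.945). RGE1, also called ZHOUPI, drives endosperm breakdown, and it fell to 3.02 and 0.996 CPM in the hybrid libraries, against 14.8 and 9.91 CPM in the control libraries (-2.60 ± 0.50, adjusted p = 0.00558). ICE1, which acts with RGE1, fell less (-0.68) and lost its call without C24 control 1, where its log2 fold change was -0.28 (adjusted p = 0.302), and without C24 hybrid 1 (0.123) or C24 hybrid 2 (0.161).

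Of 17 embryo regulators 13 were tested, with 5 higher and 2 lower (median 0.57). LEC1, a central activator of embryo and storage genes, fell to 2.45 and 1.54 CPM in the hybrid libraries, against 32.4 and 11.9 CPM in the control libraries (-3.46 ± 0.48, adjusted p = 0.0014). The control libraries lay far apart for LEC1, and both stood above both hybrid libraries, while the groups did not overlap at 68.9% of all tested loci. LEC2, of the same pathway, had 0.326 and 0.272 CPM in the hybrid libraries, against 4.81 and 1.38 CPM in the control libraries (adjusted p = 0.0485), and was not called with any 1 library left out (0.0643 to 0.315). PDF1, a marker of the protoderm and the epidermis, had 64.0 and 97.2 CPM in the hybrid libraries, against 15.8 and 11.0 CPM in the control libraries (2.59 ± 0.44, adjusted p = 0.00343). YDA, a kinase of the first zygotic division, had 39.1 and 41.5 CPM in the hybrid libraries, against 27.3 and 24.1 CPM in the control libraries (0.65 ± 0.14), with an adjusted p of 0.0769 without C24 control 2. With 1 library left out, 3 regulators rose in 3 of the 4 fits and 1 without C24 control 2, and 1 fell in all 4. Storage genes were hardly expressed at this stage: 5 of 14 passed the filter, and CRA1, a cruciferin, had 0 and 2 reads in the hybrid libraries, against 1 and 0 in the control libraries. FAD3, a desaturase of linolenic acid synthesis, was the member that rose, at 155 and 149 CPM in the hybrid libraries, against 71.6 and 80.1 CPM in the control libraries (1.00 ± 0.12, adjusted p = 0.000904).

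Flavonoid and tannin genes act mainly in the seed coat. Of 15 flavonoid and tannin enzymes and transporters none rose and 6 fell (median -0.40), and 7 had an unadjusted p under 0.05. BAN, the anthocyanidin reductase that commits the pathway to tannins, had 805 and 1034 CPM in the hybrid libraries, against 3133 and 3768 CPM in the control libraries (-1.91 ± 0.22, adjusted p = 0.000748). GSTF12, the transferase TT19 that carries the pigments to the vacuole, had 301 and 501 CPM in the hybrid libraries, against 1206 and 1072 CPM in the control libraries (-1.51 ± 0.29). UGT80B1, the sterol glucosyltransferase TT15, had 38.8 and 47.3 CPM in the hybrid libraries, against 81.9 and 95.9 CPM in the control libraries (-1.05 ± 0.16). LDOX (-0.97) and DFR (-0.72), which act just before BAN, and PAL1 (-0.55), which opens the phenylpropanoid path, completed the decreases. The early steps TT4 (log2 fold change 0.07, adjusted p = 0.729), TT5 (-0.30, 0.351) and F3H (-0.36, 0.212) did not pass the test. Neither did the later members TT12, a vacuolar transporter (-0.40, 0.177), AHA10, a proton pump (-0.43, 0.0949), and TT10, a laccase (-0.23, 0.246). The count was 4 without C24 hybrid 1 and 4 without C24 control 2, where DFR had adjusted p-values of 0.0504 and 0.0594 and PAL1 0.154 and 0.234. PAL1 was not called without C24 hybrid 2 either (0.0676).

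Among 17 ovule and seed coat regulators, 2 rose and 3 fell (median 0.11), close to the shares of all loci. STK, the MADS-box factor of ovule identity that represses BAN in A. thaliana, had 201 and 205 CPM in the hybrid libraries, against 427 and 533 CPM in the control libraries (-1.24 ± 0.17, adjusted p = 0.00124). TTG1 (-0.59) and MYB5 (-0.55), of the complex that activates tannin and coat genes, fell slightly, and the other members of that complex, TT2 (log2 fold change 0.14, adjusted p = 0.551) and TT8 (0.03, 0.899), did not pass the test. AP2, which limits seed size and shapes the coat, had 134 and 126 CPM in the hybrid libraries, against 66.6 and 66.1 CPM in the control libraries (0.97 ± 0.19, adjusted p = 0.0055). TT1, a zinc-finger factor of the inner coat layer, rose less (0.72). Fewer calls remained in some fits: without C24 hybrid 1 or without C24 control 2, 1 gene rose and 1 fell, and TT1 had adjusted p-values of 0.0585 and 0.0808 there. In the same fits TTG1 had 0.119 and 0.211 and MYB5 had 0.0673 and 0.0693, and TTG1 had 0.109 without C24 hybrid 2 and MYB5 0.0554 without C24 control 1.

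Of 20 photosystem and Calvin cycle genes 17 rose and 1 fell, with a median of 1.25. LHCB2.1, an antenna protein of photosystem II, had 109.6 and 85.6 CPM in the hybrid libraries, against 14.0 and 10.8 CPM in the control libraries (2.98 ± 0.19, adjusted p = 7.99e-05). LHCA1, of the photosystem I antenna, had 188 and 156 CPM in the hybrid libraries, against 44.0 and 35.8 CPM in the control libraries (2.11 ± 0.18, adjusted p = 0.00026). RBCS1A, a small subunit of the carbon-fixing enzyme Rubisco, had 1611 and 1149 CPM in the hybrid libraries, against 495 and 362 CPM in the control libraries (1.69 ± 0.22). Hybrid 1 was higher than hybrid 2 in all 3, and neither group overlapped the other, which held at 68.9% of all tested loci. CAB1 rose as well (1.99), and PSBW, a small subunit of photosystem II, fell (-0.94). PSBW lost its call without C24 hybrid 2 (adjusted p = 0.0801) and without C24 control 2 (0.0657). LHCB2.1 and CAB1 share 34.4 and 32.1% of their exon words with other loci. In all, 5 of the 20 genes share over 5% of these words, and among unique loci 13 rose and 1 fell. The summed level of the 20 genes was 5057 and 3821 CPM in the hybrid libraries, against 2021 and 1697 CPM in the control libraries. Between 13 and 18 of them rose with 1 library left out, and 10 in the 7-group fit. In A. arenosa control 1 and 2 the reads of RBCS1A were 6263 and 18502.

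Of 11 genes tested for chlorophyll synthesis and plastid gene control, 4 rose and 1 fell (median 0.58). CRD1, a cyclase of chlorophyll synthesis, had 189.5 and 122 CPM in the hybrid libraries, against 66.7 and 62.1 CPM in the control libraries (1.28 ± 0.20, adjusted p = 0.00224). PORB, which reduces protochlorophyllide, had 69.9 and 40.5 CPM in the hybrid libraries, against 23.3 and 22.6 CPM in the control libraries (1.27 ± 0.24, adjusted p = 0.00535). The activator of plastid development GLK2 was at or below 2.28 CPM in every library and did not pass the test (adjusted p = 0.343). CH1, the oxygenase that makes chlorophyll b, rose (0.73) but had adjusted p-values of 0.128 without C24 hybrid 1 and 0.154 without C24 control 2, and 2 genes rose in either fit. SIGE, a plastid sigma factor, fell (-0.47) and was not called with any 1 library left out (0.0591 to 0.158). The 7-group fit called 1 rise and no fall.

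Transcripts of the mitochondrial genome were also more abundant in hybrid seeds. Mitochondrial loci, ribosomal RNA left out, took 1.36 and 1.05% of gene reads in the hybrid libraries, against 0.360 and 0.432% in the control libraries. Of 46 mitochondrial loci tested 21 rose and 1 fell, with a median log2 fold change of 1.49. Of 91 plastid loci tested 15 rose and 6 fell, with a median of 0.54, and their share of reads was 1.01 and 0.456% in the hybrid libraries, against 0.457 and 0.400% in the control libraries. Hybrid 1 carried the higher plastid share, and hybrid 2 lay among the control libraries. In A. arenosa control 1 and 2, mitochondrial loci took 4.49 and 2.99% of gene reads and plastid loci 6.13 and 2.36%. On the 5 nuclear chromosomes, 16.5 to 17.1% of loci rose and 14.1 to 16.3% fell. Libraries were made from poly-A RNA, which selects organelle transcripts poorly, and 4 ribosomal RNA loci took 0.740 and 0.754% of reads in the hybrid libraries, against 0.0441 and 0.380% in the control libraries. The part of selection in the organelle values was not tested.

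**Figure D3:**
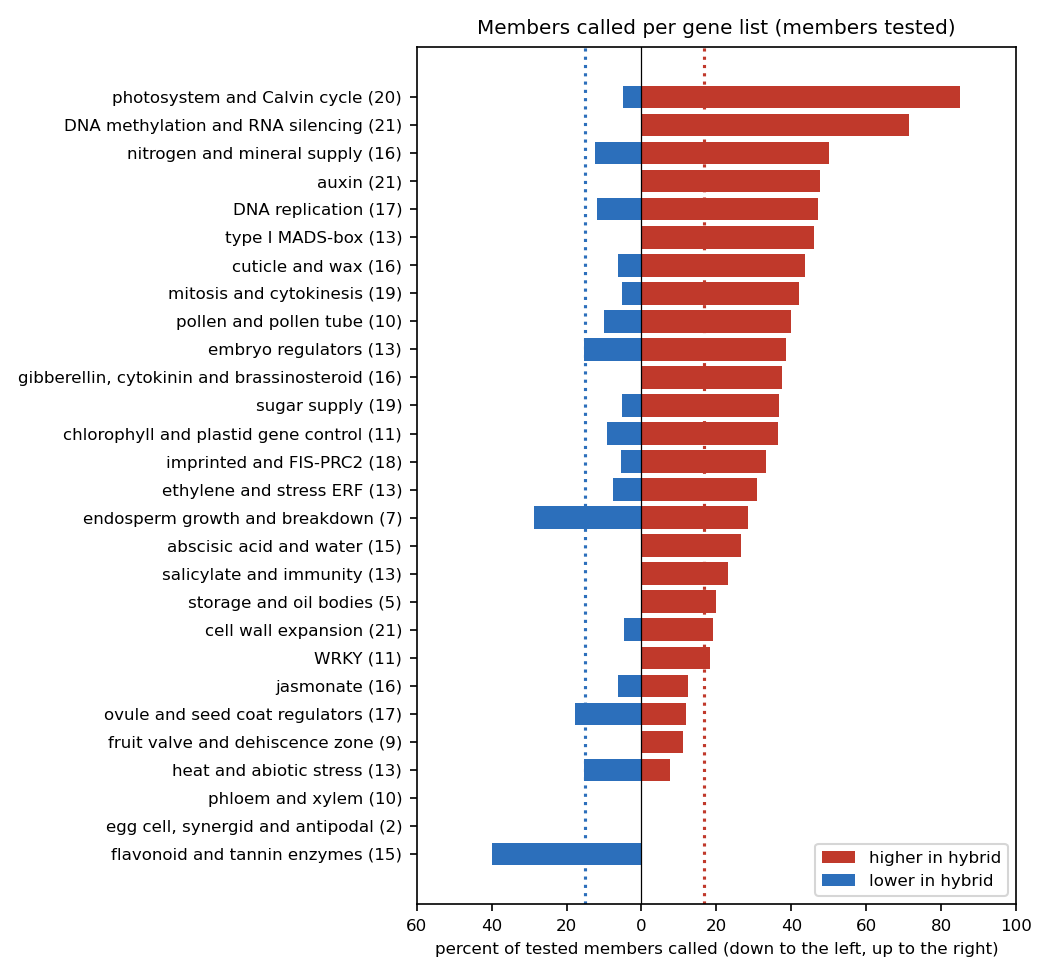
Percent of the tested members of each gene list that rose (red, to the right) or fell (blue, to the left) in C24 hybrid against C24 control seeds, with the number tested in parentheses. Dotted lines mark the percent of all tested loci that rose (16.8) and fell (15.0), and photosystem genes have the longest red bar and flavonoid genes the longest blue bar.

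Of 21 genes of DNA methylation and RNA silencing 15 rose, 6 did not pass the test and none fell (median 0.70). MET1, which maintains CG methylation, had 106 and 89.1 CPM in the hybrid libraries, against 35.2 and 34.7 CPM in the control libraries (1.48 ± 0.14, adjusted p = 0.00039). VIM3, a cofactor of MET1, had 57.4 and 37.2 CPM in the hybrid libraries, against 12.8 and 11.8 CPM in the control libraries (1.94 ± 0.22, adjusted p = 0.000618). DCL3, the dicer that makes small RNAs for DNA methylation, had 28.0 and 17.0 CPM in the hybrid libraries, against 9.49 and 9.32 CPM in the control libraries (1.26 ± 0.25, adjusted p = 0.00654), and 0.0506 without C24 control 2. The maintenance methyltransferase CMT3 rose (1.11), while the demethylase DME (adjusted p = 0.501), the methyltransferase DRM2 (0.889) and its small RNA partner AGO4 (0.808) did not pass the test. VIM3 shares 30.4% of its exon words with other loci. The count was smaller in every fit that left out 1 library, and 7 rose in the 7-group fit. It was also smaller after a correction for exon length, which takes out any trend with length by construction. Genes of this list are long, with a median exon length of 3381 bases against 1779 for all tested loci, and 9 rose and 1 fell after a correction for exon length (median 0.40).

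Exon length moved with the contrast across the whole table. Loci were split into quintiles of exon length. In the quintile with the shortest exon models 13.5% rose and 22.6% fell, and in that with the longest 25.1% rose and 4.71% fell. The median log2 fold change was -0.30 in the shortest quintile and 0.27 in the longest, against -0.06 and 0.06 for Col hybrid over Col control. With the correction for exon length, chosen after the data were seen, 19.1% of the shortest and 13.9% of the longest quintile rose, and 18.5% of the shortest fell. The correction takes each library's trend with exon length out of the fit, so the smaller contrast between quintiles follows from it by construction. The correction left 6585 loci called, of which 5536 were called in the same direction without it. Photosystem genes are short, with a median exon length of 1304.5 bases, and 18 of the 20 rose after the correction. That count is no separate test, since the correction moves the fitted changes of short loci upward by construction. Control columns were sums of 2 records in the Col cross as well, and the part of the sums in the length trend was not tested.

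**Figure D4:**
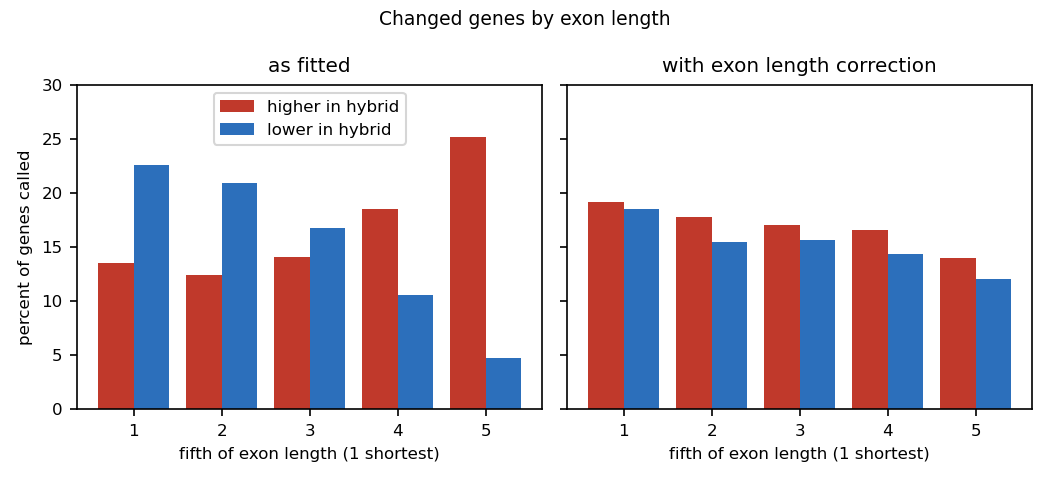
Percent of loci called higher (red) and lower (blue) in C24 hybrid than in C24 control seeds in quintiles of exon length, without (left) and with (right) a correction for exon length. Without it, red bars are taller in the longest quintiles and blue bars in the shortest. With it red and blue bars differ by less than 3 percentage points in every quintile, which is no test, since the correction removes the length trend by construction.

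Of 17 DNA replication genes 8 rose and 2 fell (median 0.41). PCNA1, the sliding clamp of DNA polymerase, had 94.2 and 99.4 CPM in the hybrid libraries, against 47.1 and 40.7 CPM in the control libraries (1.14 ± 0.14, adjusted p = 0.000891). ICU2, the catalytic subunit of polymerase alpha, had 47.1 and 38.2 CPM in the hybrid libraries, against 21.9 and 19.9 CPM in the control libraries (1.03 ± 0.14). FAS1, of the chromatin assembly factor, fell to 46.1 and 42.5 CPM in the hybrid libraries, against 85.3 and 108 CPM in the control libraries (-1.13 ± 0.15, adjusted p = 0.00132). In each fit with 1 library left out 4 replication genes rose and 1 fell. Of 19 mitosis and cytokinesis genes 8 rose and 1 fell (median 0.57). MAD2, of the spindle checkpoint, fell to 15.7 and 21.5 CPM in the hybrid libraries, against 58.0 and 65.9 CPM in the control libraries (-1.74 ± 0.17, adjusted p = 0.00039). The kinase AUR2 rose (1.54), and so did CYC1BAT, a B-type cyclin (1.4, with 20.6% of its exon words at other loci). Neither was called without C24 hybrid 1 (adjusted p = 0.0596 and 0.128) or C24 control 2 (0.0709 and 0.110), and CYC1BAT had 0.0667 without C24 control 1. The count of mitosis genes that rose was 3 without C24 hybrid 1, 4 without C24 control 1, 3 without C24 control 2 and 1 in the 7-group fit. KNOLLE (SYP111), the syntaxin of cell plate formation, had 1.96 and 1.54 CPM in the hybrid libraries, against 5.93 and 3.41 CPM in the control libraries, and did not pass the test (adjusted p = 0.0676).

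Of 16 nitrogen and mineral supply genes 8 rose and 2 fell (median 1.17). UMAMIT14, an amino acid exporter that unloads the maternal tissue, had 147 and 123 CPM in the hybrid libraries, against 14.6 and 9.38 CPM in the control libraries (3.49 ± 0.27, adjusted p = 0.000162). AAP8, an amino acid importer of young seeds, had 44.6 and 29.5 CPM in the hybrid libraries, against 4.88 and 3.22 CPM in the control libraries (3.19 ± 0.26, adjusted p = 0.000203). UMAMIT29, another amino acid exporter, went the other way, with 20.9 and 11.6 CPM in the hybrid libraries, against 75.8 and 77.8 CPM in the control libraries (-2.24 ± 0.27, adjusted p = 0.000863). The metallothionein MT2A also fell (-1.95), while MT3 (1.42) and the nitrate transporter NRT1.6 of seeds (1.07) rose. Without C24 hybrid 1 or C24 control 1, 5 rose, and without C24 control 2, 4 rose and MT3 had an adjusted p of 0.0505.

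Of 19 sugar supply genes 7 rose and 1 fell (median 0.48). SUC2, the sucrose transporter of phloem loading, had 10.2 and 8.51 CPM in the hybrid libraries, against 1.12 and 1.18 CPM in the control libraries (3.01 ± 0.44, adjusted p = 0.00173). The cell wall invertase cwINV4, which splits sucrose outside the cell, had 30.5 and 36.7 CPM in the hybrid libraries, against 8.57 and 8.79 CPM in the control libraries (1.95 ± 0.28, adjusted p = 0.00159). APL3, a subunit of the first starch enzyme, fell to 115 and 126 CPM in the hybrid libraries, against 271 and 229.7 CPM in the control libraries (-1.06 ± 0.16). SUC1 had 14.2 and 13.1 CPM in the hybrid libraries, against 3.36 and 2.56 CPM in the control libraries (adjusted p = 0.0302), and was not called with any 1 library left out (0.0809 to 0.156). The exporters SWEET11 and SWEET12, which carry sucrose to the embryo, had adjusted p-values of 0.211 and 0.289. The count of rises was 3 without C24 hybrid 1 and 3 without C24 control 2, and 2 genes fell without C24 hybrid 2. Of 10 tested phloem and xylem genes none was called (median 0.79), 3 had an unadjusted p under 0.05 and DESeq2 called none. Other edgeR settings called 2 higher without the count filter, 1 higher with the filter at 5 CPM, among unique loci and after the correction for exon length, and 1 higher and 1 lower in a fit of the C24 groups alone. The summed level of the 14 in the list was 19.0 and 21.0 CPM in the hybrid libraries, against 20.8 and 15.3 CPM in the control libraries. Members moved both ways within that sum, so it does not show equal phloem or xylem content. PP2-A1 had 2.28 and 3.26 CPM in the hybrid libraries, against 1.38 and 0.656 CPM in the control libraries. IRX9 had 4.89 and 3.53 CPM, against 6.72 and 7.35 CPM. NEN4, a marker of forming phloem, had no read in any of the 4.

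Of 21 tested auxin genes 10 rose and none fell (median 0.86). TAR1, an aminotransferase of auxin synthesis that is expressed from the paternal copy in A. thaliana endosperm, had 9.78 and 5.79 CPM in the hybrid libraries, against 0.395 and 0.131 CPM in the control libraries (4.84 ± 0.50, adjusted p = 0.000447). GH3.3, an auxin-induced enzyme that conjugates auxin, had 33.9 and 27.9 CPM in the hybrid libraries, against 4.22 and 2.1 CPM in the control libraries (3.29 ± 0.64, adjusted p = 0.00587), and 0.0532 without C24 control 2. PIN7, an auxin exporter, had 8.64 and 5.34 CPM in the hybrid libraries, against 1.38 and 1.71 CPM in the control libraries (2.17 ± 0.39). PIN3 (1.45), ARF8 (1.85) and ARF2 (0.86) rose too, and MP, a response factor of the embryo, did not pass the test (adjusted p = 0.237). TAR1 and YUC10 encode enzymes of successive steps of auxin synthesis. Between 7 and 8 genes rose with 1 library left out. A decrease was called for 1 gene without C24 hybrid 1, without the count filter and after the correction for exon length.

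Of 16 gibberellin, cytokinin and brassinosteroid genes tested 6 rose and none fell (median 0.63). GA3OX4, which makes active gibberellin in seeds, had 21.0 and 11.0 CPM in the hybrid libraries, against 0.857 and 1.18 CPM in the control libraries (3.96 ± 0.38, adjusted p = 0.000364). GASA4, which gibberellin induces, had 27.5 and 27.8 CPM in the hybrid libraries, against 10.5 and 8.60 CPM in the control libraries (1.53 ± 0.26), the reverse of AT5G59845 and GASA6 above. ARR7, a cytokinin response regulator, rose by 0.85 and was not called with any 1 library left out (adjusted p 0.0698 to 0.193) or by DESeq2 (0.182). The count was 3 without C24 hybrid 1, 4 without C24 control 1, 3 without C24 control 2 and 3 in the 7-group fit. Of 15 abscisic acid and water genes 4 rose and none fell (median 0.17). The water channels PIP1B and GAMMA-TIP led them, PIP1B with 228 and 206 CPM in the hybrid libraries, against 59.7 and 83.1 CPM in the control libraries (1.6 ± 0.20, adjusted p = 0.000854). NCED6, which makes abscisic acid in the endosperm, rose (1.37) but had adjusted p-values of 0.254 without C24 hybrid 1 and 0.202 without C24 control 2.

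Defence lists are given next, again to be read against the 16.8% and 15.0% of all tested loci that rose and fell. Of 13 salicylate and immunity genes 3 rose and none fell (median 0.63): FLS2, the flagellin receptor, had 36.4 and 29.8 CPM in the hybrid libraries, against 10.2 and 12.1 CPM in the control libraries (1.57 ± 0.17, adjusted p = 0.000557). EDS16, the salicylate synthesis enzyme ICS1, rose (1.21), and RBOHD, the oxidase of the immune burst, rose (1.59) with adjusted p-values of 0.0927 without C24 hybrid 2 and 0.105 without C24 control 2. Either of these fits called 2 increases. NPR1, the salicylate receptor, had 3.02 and 1.45 CPM in the hybrid libraries, against 1.85 and 2.03 CPM in the control libraries (adjusted p = 0.748). Of 11 WRKY genes 2 rose (median 1.05), WRKY33 and WRKY15. Neither was called without C24 hybrid 1 (adjusted p = 0.0543 and 0.146), C24 hybrid 2 (0.0956 and 0.0973) or C24 control 2 (0.131 and 0.231), and WRKY33 had 0.0786 without C24 control 1. Of 16 jasmonate genes 2 rose and 1 fell (median 0.00). JAR1, which forms the active jasmonate conjugate, fell to 112 and 98.5 CPM in the hybrid libraries, against 198 and 251 CPM in the control libraries (-1.09 ± 0.16, adjusted p = 0.00187). The regulator MYC2 (1.08) and the lipoxygenase LOX3 (0.50) rose, and neither was called after the correction for exon length (adjusted p = 0.0811 and 0.170), without C24 hybrid 2 (0.114 and 0.0546), without C24 control 2 (0.152 and 0.160) or in the 7-group fit (0.162 and 0.576). LOX3 had 0.0876 without C24 hybrid 1, and 2 genes of the list fell without C24 control 2.

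Of 13 ethylene and stress ERF genes 4 rose and 1 fell (median 0.32). ACS6, which makes the ethylene precursor, had 114 and 166 CPM in the hybrid libraries, against 60.3 and 27.4 CPM in the control libraries (1.67 ± 0.37, adjusted p = 0.00967), and 0.0564 without C24 hybrid 2. ERF104 (1.78) and ERF4 (1.09) rose and lost the call without C24 hybrid 1 (adjusted p = 0.0686 and 0.126), C24 hybrid 2 (0.123 and 0.142) or C24 control 2 (0.123 and 0.252), and ERF4 also with RLE (0.0510) and upper quartile scaling (0.0551). Counts of rises were 2, 1 and 2 in these 3 fits and 1 in the 7-group fit. Of 13 heat and abiotic stress genes 1 rose and 2 fell (median 0.42), against 16.8% and 15.0% of all tested loci. HSP90.1, a heat shock protein, had 55.8 and 63.3 CPM in the hybrid libraries, against 107 and 92.7 CPM in the control libraries (-0.74 ± 0.17, adjusted p = 0.012), and 0.0778 without C24 hybrid 1 and 0.0760 without C24 control 1. RD22, a dehydration gene, fell (-0.54) and was not called with any 1 library left out (0.0780 to 0.137). KIN1, a cold-induced gene with few reads, rose (3.1) and lost the call with any 1 library left out (0.0806 to 0.226). The heat factor HSFA2 had 2.69 and 13.9 CPM in the hybrid libraries, against 9.23 and 3.54 CPM in the control libraries (adjusted p = 0.754), and the groups overlapped.

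Of 16 cuticle and wax genes 7 rose and 1 fell (median 0.55). GPAT6, an acyltransferase of cutin synthesis, had 12.8 and 12.4 CPM in the hybrid libraries, against 1.78 and 1.38 CPM in the control libraries (2.99 ± 0.54, adjusted p = 0.00421). KCS1, an elongase of wax synthesis, had 97.5 and 118 CPM in the hybrid libraries, against 39.3 and 33.1 CPM in the control libraries (1.58 ± 0.25, adjusted p = 0.00254). KCS20 rose (2.31) with adjusted p-values of 0.0573 without C24 hybrid 1, 0.138 without C24 hybrid 2 and 0.161 without C24 control 2. The count was 3, 4 and 3 in those fits. Of 21 cell wall expansion genes 4 rose and 1 fell (median -0.02), against 16.8% and 15.0% of all tested loci. EXPA6, an expansin, had 41.1 and 39.2 CPM in the hybrid libraries, against 13.1 and 13.6 CPM in the control libraries (1.59 ± 0.16, adjusted p = 0.000429), and EXPA15 rose by a like amount (1.58). CESA1, a cellulose synthase, rose (0.65) and was not called with any 1 library left out (0.0756 to 0.128) or after the correction for exon length (0.108). EXLA1, an expansin-like gene, fell (-0.55) and lost the call in the same way (0.0595 to 0.0828). The count of rises was 2 without C24 hybrid 2, C24 control 1 or C24 control 2 and 3 without C24 hybrid 1.

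Of 10 tested pollen and pollen tube genes 4 rose and 1 fell (median 0.91), and the summed level of the 14 in the list was 82.0 and 73.9 CPM in the hybrid libraries, against 37.4 and 35.4 CPM in the control libraries. The gene sks13, a pollen relative of sks8, had 15.0 and 12.9 CPM in the hybrid libraries, against 1.65 and 0.591 CPM in the control libraries (3.63 ± 0.73, adjusted p = 0.00664), and 0.0580 without C24 control 2. In A. arenosa control 1 and 2 it had 845 and 9303 reads. TUA1, a tubulin first found in pollen, rose (0.90), and PIRL3 rose (0.68) with an adjusted p of 0.0628 without C24 control 1. ACT4, a pollen actin, fell (-4.02) but was not called with any 1 library left out (0.0978 to 0.136). Counts of rises were 2 without C24 control 1 and 2 without C24 control 2. The part of pollen transcripts in other results was not tested. Of 9 fruit valve genes 1 rose (AFO, chosen here after its value was seen), and it was not called with any 1 library left out (adjusted p 0.0656 to 0.156). Of 10 egg cell, synergid and antipodal genes 2 passed the filter, and neither was called by edgeR or DESeq2, and neither had an unadjusted p under 0.05. The egg cell gene EC1.3 had no read in any of the 4 libraries. FER, a receptor kinase of the synergids that is also widely expressed, had 405 and 444 CPM in the hybrid libraries, against 360.3 and 354 CPM in the control libraries (adjusted p = 0.326).

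The hybrid effect in C24 was then set against that in Col by the difference between the 2 log2 fold changes, tested in the same fit. Of 20552 loci 285 (1.39%) were called, 200 with a higher and 85 with a lower effect in C24, and 233 of the 6536 loci changed in C24 were among them. Most loci that changed in C24 were thus not called different between crosses, which does not show that they changed alike. Leaving out C24 control 2 gave 81, C24 control 1 gave 102, C24 hybrid 1 gave 103 and Col hybrid 2 gave 107. The 7-group fit called 33 and DESeq2 called 614.

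WRKY10 was among the genes that differed. It averaged 24.6 ± 6.19 CPM in C24 hybrid and 4.60 ± 0.637 CPM in C24 control seeds, and 9.90 ± 0.807 CPM in Col hybrid and 14.2 ± 1.25 CPM in Col control seeds (SD, n = 2 each). The log2 fold change was 2.42 ± 0.22 in C24 and -0.52 ± 0.21 in Col, where it did not pass the test (adjusted p = 0.127), and the difference was 2.93 ± 0.30 (adjusted p = 0.00438). It was called with any 1 of the 8 libraries left out (0.00164 to 0.0296), but not in the 7-group fit (0.0606). AGL96, a type I MADS-box gene named here after its value was seen, went in opposite directions. It averaged 39.8 ± 11.9 CPM in C24 hybrid and 10.3 ± 0.0788 CPM in C24 control seeds, and 0.715 ± 0.492 CPM in Col hybrid and 11.5 ± 1.81 CPM in Col control seeds. Both changes passed the test (C24 1.95 ± 0.27, Col -4.19 ± 0.41), and the difference was 6.14 ± 0.49 (adjusted p = 0.00142), called with any 1 library left out (0.000207 to 0.0148).

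Of the 16 nitrogen and mineral supply genes 3 were called different between crosses, UMAMIT14, AAP8 and MT2A, and of the 19 sugar supply genes none was. UMAMIT14 had 147 and 123 CPM in the C24 hybrid libraries, against 14.6 and 9.38 CPM in the C24 control libraries, and averaged 109 ± 7.31 CPM in Col hybrid and 55.3 ± 14.9 CPM in Col control seeds. Its difference of 2.51 ± 0.35 (adjusted p = 0.0152) was called in 5 of the 8 fits that left out 1 library (highest 0.0715, without C24 hybrid 1). AAP8 averaged 37.1 ± 10.7 CPM in C24 hybrid and 4.05 ± 1.18 CPM in C24 control seeds, and 22.1 ± 1.22 CPM in Col hybrid and 14.1 ± 0.712 CPM in Col control seeds. Its difference of 2.55 ± 0.34 (adjusted p = 0.0138) was lost without Col hybrid 2 (0.0554) and without C24 control 2 (0.0677). RGP4 had a lower level in hybrid seeds of both crosses, with the larger difference in C24 (log2 fold change -3.24 ± 0.18, Col -0.90 ± 0.20, difference -2.33 ± 0.26, adjusted p = 0.00624). It averaged 15.6 ± 0.666 CPM in C24 hybrid and 147 ± 29.3 CPM in C24 control seeds, and 5.75 ± 0.786 CPM in Col hybrid and 10.9 ± 0.778 CPM in Col control seeds.

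**Figure D5:**
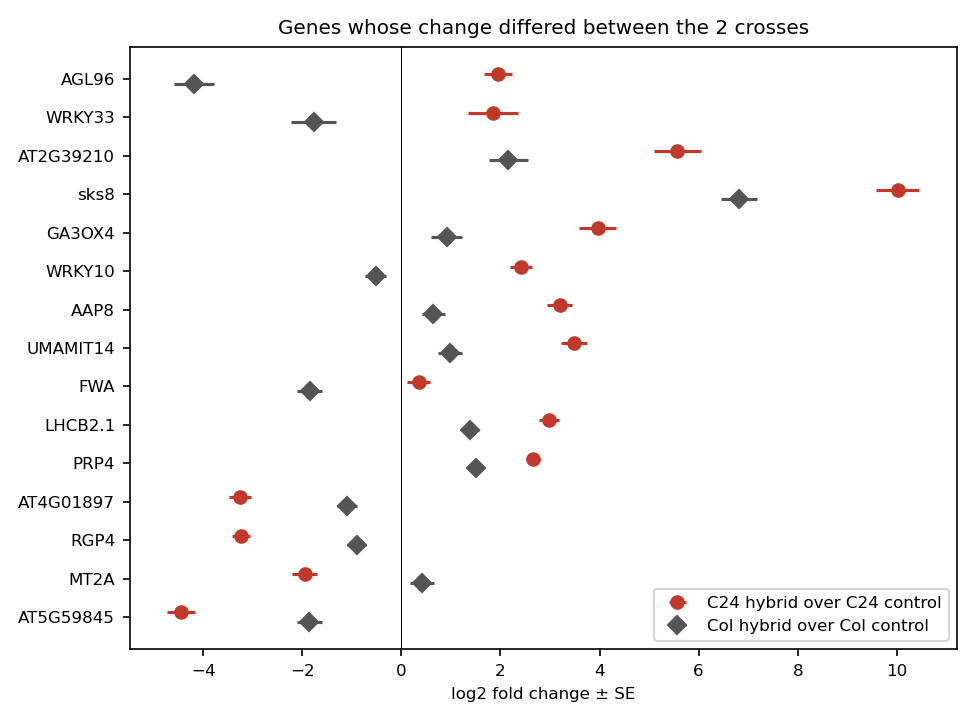
Log2 fold change ± SE of hybrid over control seeds in the C24 cross (red circles) and the Col cross (grey diamonds) for the named genes and list members whose change differed between crosses and that had reads in every group. AGL96, WRKY33, FWA and WRKY10 (2.42 in C24 and -0.52 in Col) lie above 0 in C24 and below 0 in Col. MT2A lies below 0 in C24 and above 0 in Col, and not all of these changes passed the test within each cross.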

How the data were processed

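Libraries of poly-A RNA were made by random priming for Illumina sequencing, per the labels' protocols, and no strand marking is stated, so reads of overlapping antisense genes cannot be told apart. The deposited values are counts of reads per locus that the authors made on the A. thaliana genome. The submitters' processing notes name BWA and TAIR10. The counting rule and what was done with reads that match several loci are not given in the sources used here. Control columns were summed from 2 records each, and whether adaptors differed between groups is not clear from the labels, so this and the cross cannot be told apart.

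edgeR 4.0.16 (R 4.3.3) fitted a quasi-likelihood model over 8 seed libraries in 4 groups with TMM factors, after filterByExpr, with Benjamini-Hochberg adjustment over 20552 loci and a threshold of 0.05. The standard error is the absolute log2 fold change over the square root of F. CPM use TMM library sizes. A locus was called not unique where over 5% of its 31-base exon words also occurred elsewhere, which held for 1986 tested loci. The method was also run on simulated counts of independent libraries, which cannot show how far the calls hold in these data. DESeq2 1.42.0, other scalings and filters, and leaving out each library were alternatives.

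Named genes were the 8 called unique loci with the largest increases and the 8 with the largest decreases, with at least 20 CPM in each library of the higher group and no overlap, the 8 that gained and the 8 that lost the most CPM, and up to 3 called members of each list that averaged at least 5 CPM in the higher group. Other list members named are called or well-known genes, chosen after their values were seen. Members and lists were chosen with earlier results of these data known. Same-numbered C24 libraries were not taken as pairs, since nothing in the labels ties them. Silique libraries entered only the joint fit of all 7 groups. The values of 1 list member are not reported here.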

Additional observations from a re-analysis of the deposited data

Results flagged for a closer look

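For 16 named genes or list members, the change in the C24 cross differed from that in the Col cross by a test of the difference itself (C24 log2 fold change minus Col log2 fold change, edgeR's quasi-likelihood test). Only AGL96, RGP4 and WRKY10 among them kept the call in all 8 fits that left out 1 library, and only AGL96, UMAMIT14 and MT2A in a fit over all 7 groups. AGL96, WRKY33, FWA, MT2A and ARF13 were named after their values were seen.

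The effect was higher in C24 for AGL96 (difference 6.14), WRKY33 (3.62), AT2G39210 (3.41), sks8 (3.2), GA3OX4 (3.05), WRKY10 (2.93), AAP8 (2.55), UMAMIT14 (2.51), FWA (2.2), LHCB2.1 (1.6) and PRP4 (1.14). AGL96 rose in C24 (1.95) and fell in Col (-4.19 ± 0.41). WRKY33 had 1.87 and 2.44 CPM in the C24 hybrid libraries, against 0.659 and 0.525 CPM in the C24 control libraries, with a log2 fold change of 1.85 in C24 and -1.77 ± 0.45 in Col. Its difference was called in 1 of the 8 fits, that of PRP4 in 1, that of GA3OX4 in 2, that of AT2G39210 in 3, and those of sks8 and LHCB2.1 in 4. FWA, an imprinted homeodomain gene, did not pass the test in C24 (adjusted p = 0.288) and had a log2 fold change of -1.86 ± 0.24 in Col. ARF13 had a difference of 9.08, a fitted value that depends on the prior count, since the Col hybrid libraries held 0 reads. ARF13 was not raised in C24, with 7.26 and 3.53 CPM in the C24 hybrid libraries, against 8.44 and 11.5 CPM in the C24 control libraries. It did not pass the test in C24 (adjusted p = 0.12), and edgeR without the count filter called it lower there (-0.87, adjusted p = 0.0323).

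The effect was lower in C24 for AT5G59845 (-2.59), MT2A (-2.37), RGP4 (-2.33) and AT4G01897 (-2.17). MT2A fell in C24 (-1.95 ± 0.25) and did not pass the test in Col (0.42 ± 0.24, adjusted p = 0.26), and its difference was called in 4 of the 8 fits, that of AT5G59845 in 5 and that of AT4G01897 in 6.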

How the results depend on the processing

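Of 199 named or list genes followed through the alternatives, none that was called in the reported fit reversed its direction. Genes that did not pass the test were not checked for a change of direction. In a joint fit of all 7 groups, which adds A. arenosa and silique libraries, 3931 loci changed, 1875 higher and 2056 lower in C24 hybrid seeds, and 33 differed between crosses. Without the count filter 1052 differed between crosses, and with DESeq2 614. Leaving out 1 library at a time, with the same loci tested and a lone library assumed to vary like the other groups, gave 3053 to 4790 changed loci, 1530 to 2624 higher, 1523 to 2166 lower and 81 to 373 different between crosses. The lowest counts came without C24 control 2. All other alternatives kept the number of changed loci within 1.5 times that reported. Of 199 named or list genes, 76 lost their call without C24 control 2, 67 without C24 hybrid 1, 49 without C24 control 1, 42 without C24 hybrid 2 and 67 in that joint fit, against 13 with DESeq2 and 19 after the exon length correction, which was chosen after seeing the data. The cause was not tested.

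With the replicate number as a block 6678 loci changed and 344 differed between crosses, and MCM2 alone of the 199 lost its call (adjusted p = 0.0577). The block also called 2 phloem and xylem genes higher, where the fit without it called none. The labels do not say what a number marks. Deviations of same-numbered libraries had a correlation of 0.353 between the C24 groups and of 0.69 between C24 control and Col control. It was 0.383 between C24 hybrid and Col control, and -0.10 to -0.07 for pairs with Col hybrid. What the control groups share by replicate number was not tested.

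At 3 reads, or 0.245 and 0.272 CPM in the hybrid libraries, against 0.198 and 0.197 CPM in the control libraries, absence cannot be told from a low level.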
